A study of Mus musculus with 33 samples.

Results

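The Hedgehog genes described here are the 3 ligands Shh, Ihh and Dhh, the receptor Ptch1, the signal transducer Smo, the ligand-binding antagonist Hhip and the transcription factors Gli1, Gli2 and Gli3. They were taken as the probe sets that the platform annotation assigns to exactly 1 of these symbols. All 9 genes were found, with 21 probe sets, among 18193 genes measured by 34945 probe sets.

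GDNF-treated enteric neural crest cells (ENCCs), untreated ENCCs and whole gut were compared, all of embryonic day 14.5 mice on a C57BL/6 background. ENCCs are the precursors of the neurons and glia of the gut wall. They came from embryos transgenic for Wnt1-Cre and for the LoxP/R26-YFP reporter, so that the sorted, fluorescent cells are those with a history of Wnt1 promoter activity, and their genotype was shared by both ENCC groups. The cells of 1 gut were divided over a pair of wells on fibronectin, and 1 well of each pair received 50 ng/ml GDNF, the ligand that signals through the receptor RET. Both wells held N2 and B27 supplements with FGF and EGF, and the culture time is unknown here. Whole guts were wild-type tissue from the duodenum to the anus. The cell type field of their labels names ENCCs, and they are read as tissue from the other label fields. There were 9 GDNF-treated ENCC RNAs on 13 arrays, 9 untreated ENCC RNAs on 12 arrays and 8 whole gut RNAs on 8 arrays. Arrays were named in 2 batches, with whole guts in batch 2 only, and 7 ENCC RNAs were read in both. Shared litters are not recorded in the labels, so that p-values measure the spread between these samples.

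In the canonical pathway a Hedgehog ligand binds Ptch1, which then stops holding back Smo, and active Smo turns Gli2 and Gli3 from repressors or inert forms into activators. Gli1, Ptch1 and Hhip are themselves induced by the pathway in many tissues, and Ptch1 and Hhip limit it by binding ligand. In the embryonic gut, Shh and Ihh are made by the epithelium and act mainly on the mesenchyme around it, where Ptch1, Gli1 and Hhip are expressed.

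Values are scores made within each array, and not log2 intensities. From the values, a score appears to rank how far a probe set lay from the 7 ENCC RNAs read in both batches, relative to their spread in that batch, with a median of 0 on every array. Of these 7 RNAs, 4 were GDNF-treated (guts 2, 3, 8 and 9) and 3 untreated (guts 3, 8 and 9), and the other ENCC RNAs lie outside that standard. A difference of scores is therefore no fold change, the level of a gene is not kept, and scores of different genes were not set against each other. Gene scores are means over probe sets. Markers of crest, epithelium and mesenchyme were read in the sorted cells. Of 9 enteric neural crest genes measured, 7 were higher in GDNF-treated ENCCs and 8 in untreated ENCCs than in whole gut (5 of the 8 when each group had its own weight), among them Ret, by 2.61 in GDNF-treated ENCCs and by 1.80 in untreated ENCCs. All 16 epithelial markers were lower in GDNF-treated ENCCs, and 15 of 16 in untreated ENCCs. Of 14 mesenchyme markers, 12 were lower in GDNF-treated ENCCs, while 7 were lower and 2 were higher in untreated ENCCs. When each group had its own weight, 6 were lower and 0 were higher in untreated ENCCs. The markers thus do not show the untreated cells to be free of mesenchyme. Without weights, 25.1% of all genes were higher and 26.0% lower in GDNF-treated ENCCs, and 19.8% and 22.8% in untreated ENCCs. With weights, 9.01% were higher and 11.7% were lower in untreated ENCCs. The scores of 1 RNA in both batches correlated by 0.117 to 0.325 over probe sets. The lowest value was that of the untreated well of gut 3, which correlated by 0.388 with another untreated RNA. Called Hedgehog genes and pathway lists that rest on it are also given without it, while single probe sets are not. The treated well of gut 8 correlated by 0.247 between batches and by 0.268 with another treated RNA.

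Under GDNF, 4 of the 9 Hedgehog genes were lower and 0 were higher than in the untreated well of the same gut (limma on 9 within-gut differences, adjusted p under 0.05, Benjamini-Hochberg over all genes). The 4 were Smo, Gli2, Gli3 and Hhip, with mean score differences of -1.18 to -0.83. No call was made for the ligands, for Ptch1 or for Gli1. Among all genes, 13.2% were lower and 18.3% were higher with GDNF. The median difference was -0.07 over the 9 genes, against 0.01 over all genes, so that the median does not follow the 4 genes that fell.

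Smo, the membrane protein that carries the signal across into the cell, scored -1.19 at the lowest, -0.55 at the median and 0.06 at the highest in the 9 GDNF-treated RNAs, against -0.51, 0.54 and 1.30 in the 9 untreated RNAs. The groups overlapped only through gut 1, whose untreated well scored -0.51, while the other 8 untreated RNAs lay above every treated RNA. The within-gut difference was -1.13 ± 0.60 (SD, n = 9 guts; 95% interval -1.63 to -0.63; limma adjusted p = 0.0021), and Smo was lower in 9 of 9 guts. Without the doubted array of gut 3 it was -1.26, and the corresponding values were -1.22 for Hhip, -0.96 for Gli2 and -0.87 for Gli3, all called.

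Hhip, the membrane-anchored antagonist that sequesters ligand, scored -1.32 at the lowest, -0.69 at the median and -0.04 at the highest in GDNF-treated RNAs, against -0.79, 0.73 and 1.34 in untreated RNAs. Here too the untreated well of gut 1 was the only untreated RNA within the treated range. The difference was -1.18 ± 0.64 (SD, n = 9 guts; 95% interval -1.70 to -0.67; limma adjusted p = 0.00186), with lower values in 9 of 9 guts, the smallest being -0.12 in gut 8 and -0.31 in gut 1.

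Gli2, the factor that acts mainly as the activator of the pathway, scored -1.53 at the lowest, -0.38 at the median and 0.80 at the highest in GDNF-treated RNAs, against -0.16, 0.90 and 1.23 in untreated RNAs. The groups overlapped, and the treated well was lower in 9 of 9 guts. With the wells taken as unpaired, the difference was -0.96 (limma adjusted p = 0.019), so the call did not rest on the pairing. The difference was -0.92 ± 0.59 (SD, n = 9 guts; 95% interval -1.41 to -0.42; limma adjusted p = 0.00773), and it ran from -1.74 in gut 2 to -0.15 in gut 9.

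Gli3, which is cut into a repressor when the pathway is off, scored -1.17 at the lowest, -0.30 at the median and 0.55 at the highest in GDNF-treated RNAs, against -0.12, 0.67 and 1.25 in untreated RNAs. These ranges overlapped as well. The difference was -0.83 ± 0.52 (SD, n = 9 guts; 95% interval -1.30 to -0.36; limma adjusted p = 0.00987), with lower values in 8 of 9 guts and 0.15 in gut 1. Gut 1 thus gave the smallest response of Smo and Gli3 and one of the smaller ones of Gli2 and Hhip.

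Gli1, the factor most often read as a sign of pathway activity, scored -0.95 to 1.06 with GDNF, against -1.14 to 1.16 without it. The within-gut difference was 0.06 ± 0.56 (SD, n = 9 guts; 95% interval -0.43 to 0.54; limma adjusted p = 0.877), with gut 9 at 1.32 and the other guts between -0.48 and 0.40. Ptch1, the receptor, differed by -0.07 ± 0.75 (95% interval -0.62 to 0.49; limma adjusted p = 0.873). A p above the threshold does not show that their levels were alike in the wells of a gut.

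The ligands spread widely between guts. Shh differed by 0.34 ± 0.91 (95% interval -0.28 to 0.97; limma adjusted p = 0.413), with extremes of -1.17 in gut 3 and 1.89 in gut 9. Ihh, the partner of Shh in gut epithelium, differed by 0.24 ± 1.16 (95% interval -0.50 to 0.97; limma adjusted p = 0.648), with -1.67 in gut 8 and 2.57 in gut 6. Ihh has 1 probe set, whose correlation between batches was 0.24, and its difference in gut 9 was -1.41 in batch 1 and 1.55 in batch 2. Dhh, known as the ligand of Schwann cells and testis, differed by 0.31 ± 1.03 (95% interval -0.36 to 0.98; limma adjusted p = 0.502). None of the 3 genes was called, which does not show that their levels were alike. A single Shh probe set was called, as described below.

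**Figure D1:**
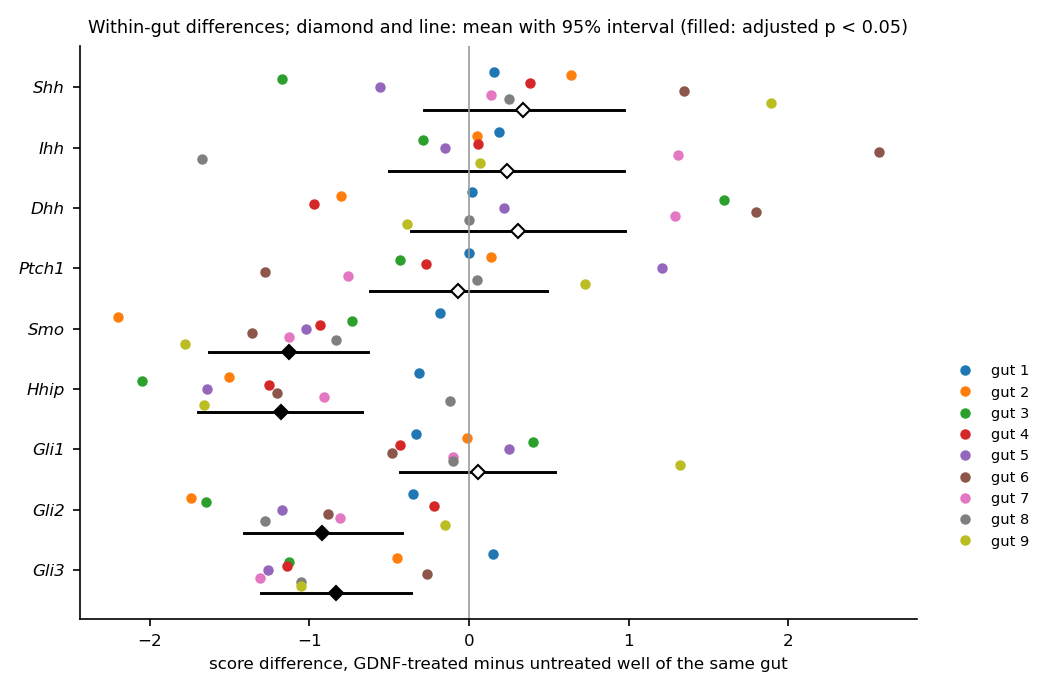
Within-gut score differences, GDNF-treated minus untreated, for the 9 Hedgehog genes; each point is 1 of 9 guts, and the mean is drawn with its 95% interval. The points of Smo, Hhip and Gli2 lie below 0 in every gut, while those of Shh, Ihh, Dhh, Ptch1 and Gli1 lie on both sides of 0.

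Guts 3, 8 and 9 were read in both batches. For Hhip the difference in batch 1 was -2.41, -0.41 and -1.84 in these guts, and in batch 2 it was -1.69, 0.16 and -1.49. For Smo it was -1.92, -1.02 and -2.12 in batch 1, and 0.46, -0.63 and -1.44 in batch 2, where the value of 0.46 rests on the doubted array of gut 3. Gli2 and Gli3 were lower with GDNF in all 6 readings of these guts. In batch 1 alone, with 8 guts, all 4 genes were called, at -1.21 for Smo, -0.88 for Gli2, -1.01 for Gli3 and -1.25 for Hhip. In batch 2 alone, with 4 guts, no Hedgehog gene passed the adjusted threshold and 1, Hhip, passed an unadjusted p of 0.05 by limma. The mean differences there were -0.95 for Smo, -1.07 for Gli2, -0.66 for Gli3 and -1.13 for Hhip. Among all genes, none (0) passed in batch 2 alone by limma, and 3516 had an unadjusted p under 0.05.

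Single probe sets showed where the gene means came from. With GDNF 9 of the 21 probe sets were lower and 1 was higher, where 13.2% of all probe sets were lower and 16.9% were higher. The reproducibility of a probe set was taken as its correlation between batches over the 7 RNAs read in both, which had a median of 0.67 over the 21 and of 0.37 over all probe sets. Since the 7 RNAs hold both treated and untreated wells, a GDNF difference raises this correlation by itself. It is given beside the probe sets as a description. Higher correlations in called probe sets are thus partly built in. They do not show that the probe sets without a call are the poorer readings.

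For Hhip, 3 probe sets with correlations of 0.83 to 0.93 were lower with GDNF, by differences of -1.45, -1.45 and -1.26, and the remaining one, with a correlation of 0.32, differed by -0.57 (limma adjusted p = 0.257). For Gli3, 2 probe sets fell by 1.17 and 0.92, with correlations of 0.67 and 0.74. Another, with a correlation of -0.05, differed by -0.41 (limma adjusted p = 0.417). For Smo, 2 probe sets fell by 1.52 and 1.32, with correlations of 0.76 and 0.23. Another, with a correlation of -0.39, differed by -0.55 (limma adjusted p = 0.12). The 2 Gli2 probe sets fell by 1.08 and 0.76, with correlations of 0.85 and 0.64. The 2 probe sets of Gli2 are annotated to 1 target sequence, as are 2 of the 3 of Smo, so these pairs are not independent readings.

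Shh was the gene whose probe sets disagreed. One of them (1436869_at) was higher with GDNF, by 1.19 ± 1.39 (SD, n = 9 guts; limma adjusted p = 0.0352), with a median over guts of 0.66 and gut 9 at 3.95. The second (1427571_at) differed by -0.50 ± 1.27 (limma adjusted p = 0.359), with a median of -0.17. Their correlations between batches were 0.74 and 0.73, so neither was the less reproducible reading. Gli1 had a single probe set, with a correlation of -0.02 between batches, and its within-gut values are to be read with that. Of the 3 Ptch1 probe sets, correlations were 0.91, 0.24 and 0.00, and the most reproducible one differed by 0.17 with GDNF (limma adjusted p = 0.711).

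**Figure D2:**
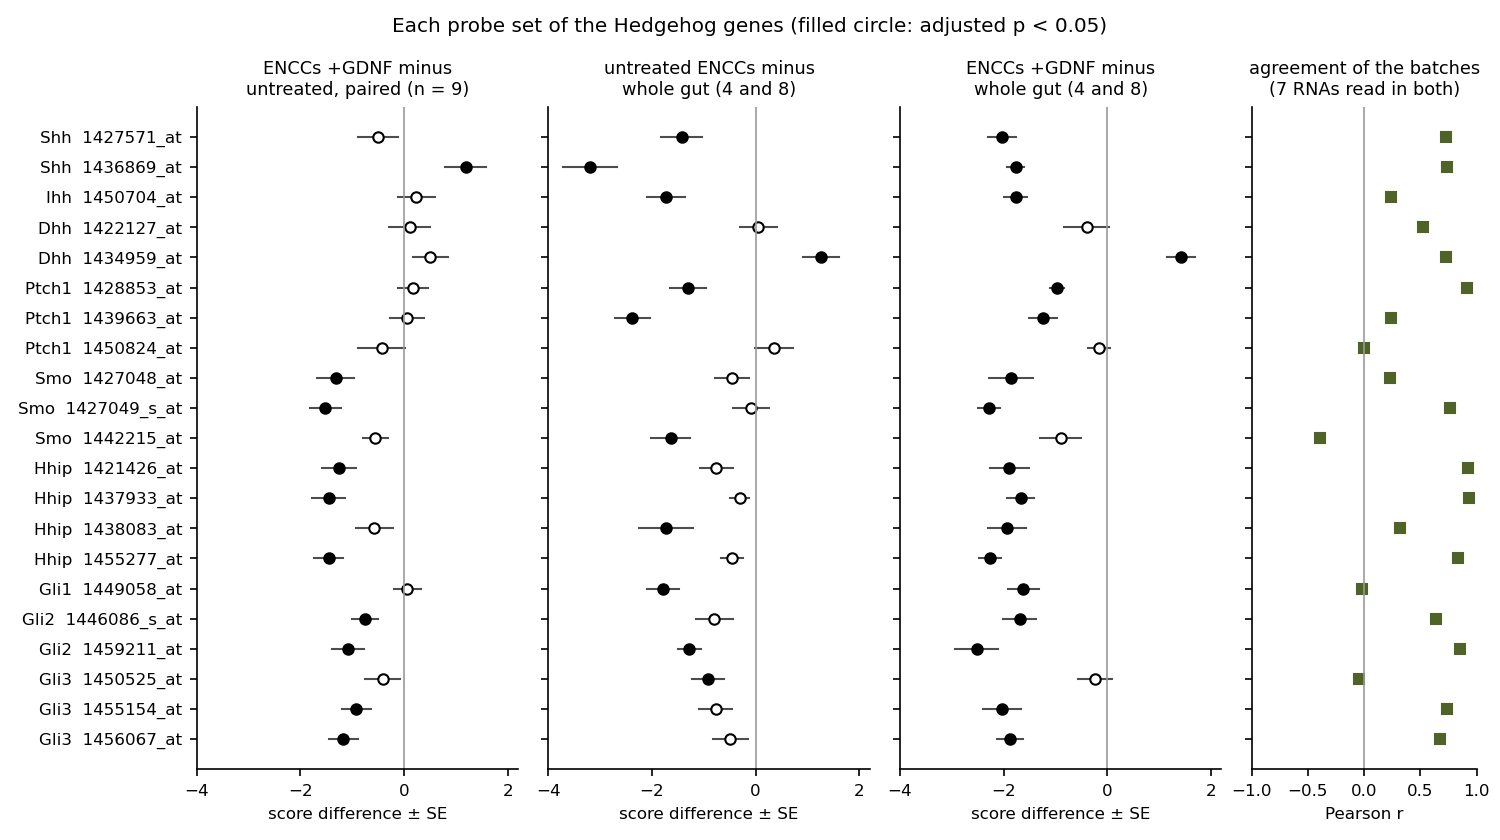
Score differences of the 21 probe sets of the Hedgehog genes in the comparisons of GDNF-treated with untreated ENCCs and of ENCCs with whole gut (x axes, bars are the SE, filled where the adjusted p was under 0.05), and their Pearson correlation between batches over 7 RNAs. All 12 probe sets of Smo, Gli2, Gli3 and Hhip lie below 0 with GDNF, 9 of them filled, and the 2 Shh probe sets lie on opposite sides of 0.

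Across the 18 ENCC RNAs the score of Hhip correlated with that of Smo (Pearson r = 0.833), Gli2 (0.672) and Gli3 (0.558), while r was 0.018 with Ptch1 and -0.157 with Gli1. These values describe 18 points that include both groups and both batches, and thus hold the GDNF difference. The genes most like Hhip over these RNAs were Gpr37 (r = 0.947), Eda2r (0.936) and Enc1 (0.916). With the 8 whole guts added they were Igf2bp1 (0.943), Frk (0.926) and Camk1d (0.922). For Ptch1 they were Hr (0.817), Them5 (0.752) and Abi3bp (0.751) over ENCC RNAs, and Abi3bp (0.900), Adi1 (0.863) and Naip2 (0.858) with whole guts. For Gli1 they were 4930448K20Rik (0.817), Gm34784 (0.807) and Aloxe3 (0.732) over ENCC RNAs, and Rab25 (0.900), Oas1a (0.885) and Hba-x (0.884) with whole guts. The set of nearest genes changed when whole guts were added, with Abi3bp the only gene named in both sets of a Hedgehog gene.

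Because Smo, Gli2, Gli3 and Hhip fell together, the RefSeq promoters of the Hedgehog genes (GRCm38.p6, from 250 bases before to 50 after the start) were searched on both strands for the GLI consensus GACCACCCA. The table held 7 of the 9 genes, all but Shh and Gli1. The promoters of Gli2 and Hhip are shown, as the only one with a match to the core of the consensus and as that of the gene with the largest mean fall.
Gli2, chr1:119053570-119053869, minus strand: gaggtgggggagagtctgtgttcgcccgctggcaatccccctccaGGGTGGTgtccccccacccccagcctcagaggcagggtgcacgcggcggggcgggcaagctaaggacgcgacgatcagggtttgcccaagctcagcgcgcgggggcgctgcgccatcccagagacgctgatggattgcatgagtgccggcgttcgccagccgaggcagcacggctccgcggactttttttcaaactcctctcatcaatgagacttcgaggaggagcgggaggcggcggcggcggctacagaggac
Hhip, chr8:80057959-80058258, minus strand: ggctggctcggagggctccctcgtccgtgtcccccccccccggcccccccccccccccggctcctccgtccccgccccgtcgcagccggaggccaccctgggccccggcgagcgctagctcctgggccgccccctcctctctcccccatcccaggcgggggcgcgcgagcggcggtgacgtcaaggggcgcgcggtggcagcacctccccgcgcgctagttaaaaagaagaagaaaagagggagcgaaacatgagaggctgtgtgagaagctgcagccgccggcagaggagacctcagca
The capitals in the Gli2 promoter mark the 7-base core ACCACCC, which lies on the strand opposite to the gene and whose first base as printed is at -205 from the start. The consensus was found in 0 of the 7 promoters and in 0.253% of 32851 promoters, and GACCNCCCA, which contains it, in 0 of the 7 and in 0.977%. The core, which lies within the consensus and was searched after the longer motif gave no match, was found in Gli2 alone of the 7 and in 4.61% of all promoters. The G and C content was 67.3% for Gli2 and 73.7% for Hhip, against a median of 52.7%, with 28 and 30 CpG dinucleotides, against a median of 7. A match of letters is no binding site, and no match concerns these windows alone.

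Genes around the core pathway were read from 4 lists. Of 11 measured genes of ligand release and co-reception, 0 were higher and 6 were lower with GDNF, and the list had a median difference of -0.79. The co-receptors Gas1 (-1.06) and Boc (-0.85), which help Ptch1 to bind ligand, fell, as did Disp1 (-0.98), which releases ligand from the cell. The secreted release factors Scube1 (-0.87) and Scube3 (-0.86) and the glypican Gpc3 (-0.79), which competes for ligand, also fell. The mean score of the list was lower with GDNF in 8 of 9 guts, with gut 1 at 0.07.

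Of 16 genes of intracellular control, 5 were higher and 2 were lower, with a median of -0.07. The rise was in Arrb2 (1.70), a beta-arrestin linked to Smo traffic, in Prkaca (1.46) and Prkar1a (1.08), subunits of the protein kinase A that primes Gli2 and Gli3 for processing, in Mosmo (1.26), which holds back Smo, and in Btrc (0.65), the ligase adaptor that recognises phosphorylated Gli3. Evc2 (-1.52), a ciliary partner of Smo, and Gpr161 (-1.02), a receptor that raises protein kinase A activity, were lower. The Gli-binding inhibitor Sufu (-0.59, limma adjusted p = 0.0703) and its ciliary partner Kif7 (-0.59, limma adjusted p = 0.0704) did not pass. Of 10 genes of cilium transport, Kif3a (1.73) and Ift88 (1.20) were higher and Ift27 (-1.38) was lower, and the list had a median of 0.24. The shares of the cilium list lie near those of all genes, of which 18.3% were higher and 13.2% lower. The lower share of the intracellular list, 12.5%, also lies near that of all genes.

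Of 18 genes known as targets of the pathway in gut mesenchyme or other tissues, 2 were higher and 7 were lower with GDNF, with a median of -0.52. The lower ones were Osr1 (-1.76), a transcription factor of mesenchyme, the cyclins Ccnd1 (-1.24) and Ccnd2 (-1.24) with their kinase Cdk6 (-1.07), the growth factors Bmp2 (-1.13) and Bmp4 (-0.92), and Hsd11b1 (-1.09), an enzyme of glucocorticoid metabolism. The Wnt antagonist Sfrp1 (0.89) and the survival factor Bcl2 (0.82) were higher, a share of 11.1%, below the 18.3% of all genes. Osr1, Foxf2, Nkx2-3 and Tcf21 stand in this list and among the mesenchyme markers.

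Mesenchyme markers were read beside these genes. Of 14 such markers, 0 were higher and 6 were lower with GDNF, and their mean score was lower in 9 of 9 guts, by differences of -1.64 to -0.12. The median over guts was -0.22, with the larger falls in guts 2 (-1.55), 3 (-0.98), 6 (-1.64) and 8 (-0.74). Foxf2 (0.12), Nkx2-3 (0.35), Tcf21 (0.39) and Twist2 (0.08) lay above 0 and the other markers below it. None of the 8 smooth muscle markers was called. Without the doubted array of gut 3, the counts of the 4 pathway lists and of the mesenchyme markers were the same. Of 6 ribosomal protein genes, a readout related to RNA quality, 5 fell, with within-gut means of -1.54 to -0.05, and 6 of 6 were lower without that array. The hybridisation controls, spiked into every array, differed by -2.18 to 0.65 between the wells of a gut, and with them as a covariate the differences were -1.11 for Smo, -1.14 for Gli2, -0.97 for Gli3 and -1.18 for Hhip, all still called. The part of the mesenchyme markers and ribosomal proteins in the fall of the Hedgehog genes was not tested. In these bulk RNAs, fewer cells of a type and less RNA per cell cannot be told apart.

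**Figure D3:**
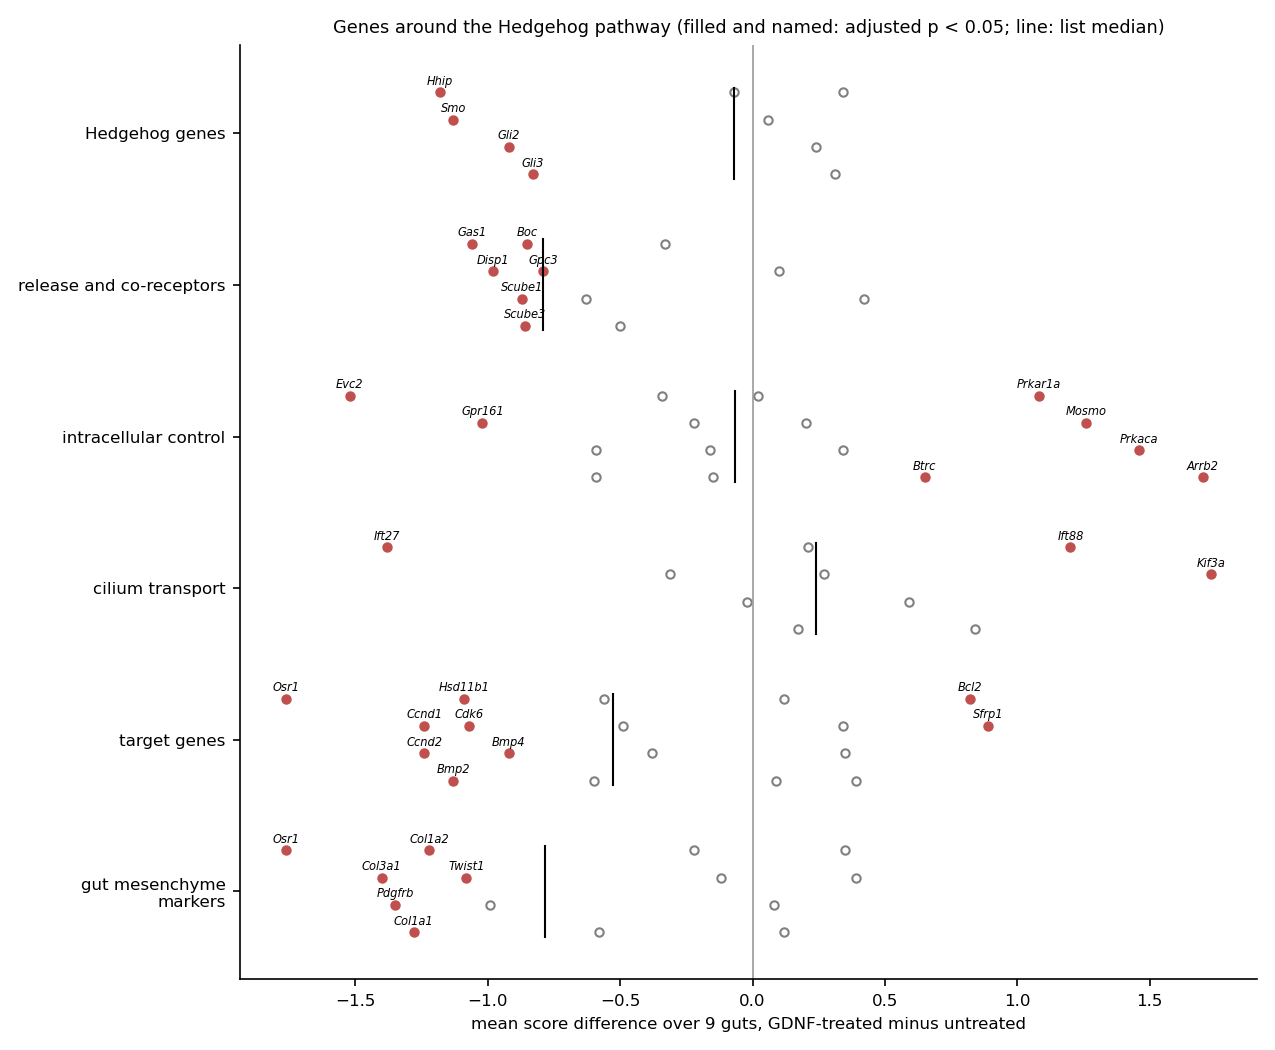
Mean score differences over 9 guts, GDNF-treated minus untreated, for the 9 Hedgehog genes, 4 lists of genes around the pathway and the mesenchyme markers; each point is a gene, filled and named where the adjusted p was under 0.05, and the vertical line is the median of the list. The list of release and co-receptors has a median of -0.79 and no filled point above 0, while the intracellular list has filled points on both sides.

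Against whole gut, the batch 2 arrays were used, with 4 GDNF-treated and 4 untreated ENCC RNAs against the same 8 whole guts, so that the 2 comparisons share their whole guts. Except for the untreated RNA of gut 2, these ENCC RNAs are the 7 that appear to set the standard of the scores. Treated and untreated scores are thus tied to each other, and the 2 comparisons are not separate evidence of a GDNF difference. The scores, which appear to be scaled on ENCC RNAs, were far less spread in whole guts than in ENCCs. The part of the scoring in this was not tested. Whole gut SDs were 0.04 to 0.23 for the 9 genes. A second fit therefore gave each group its own weight, and a gene is called lower here only where both fits gave an adjusted p under 0.05. In GDNF-treated ENCCs 8 of the 9 genes were lower in both fits, all but Dhh, where 26.0% of all genes were lower with equal spread, 15.9% were lower with weights, 25.1% were higher with equal spread and 16.0% were higher with weights. In untreated ENCCs 8 were lower with equal spread, where 22.8% of all genes were lower and 19.8% were higher, and 6 remained with weights, where 11.7% were lower and 9.01% were higher. Without gut 3, whose untreated array is the doubted one, 4 of the 9 were lower in both fits in untreated ENCCs. They were Shh, Ihh, Ptch1 and Gli1. Among all genes, 12.5% were lower and 11.3% were higher in both fits without gut 3. The weighted fit without gut 3 was added after the data had been seen. The median difference of the 9 genes was -1.68 for GDNF-treated and -1.04 for untreated ENCCs, against -0.02 and -0.01 over all genes.

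**Figure D4:**
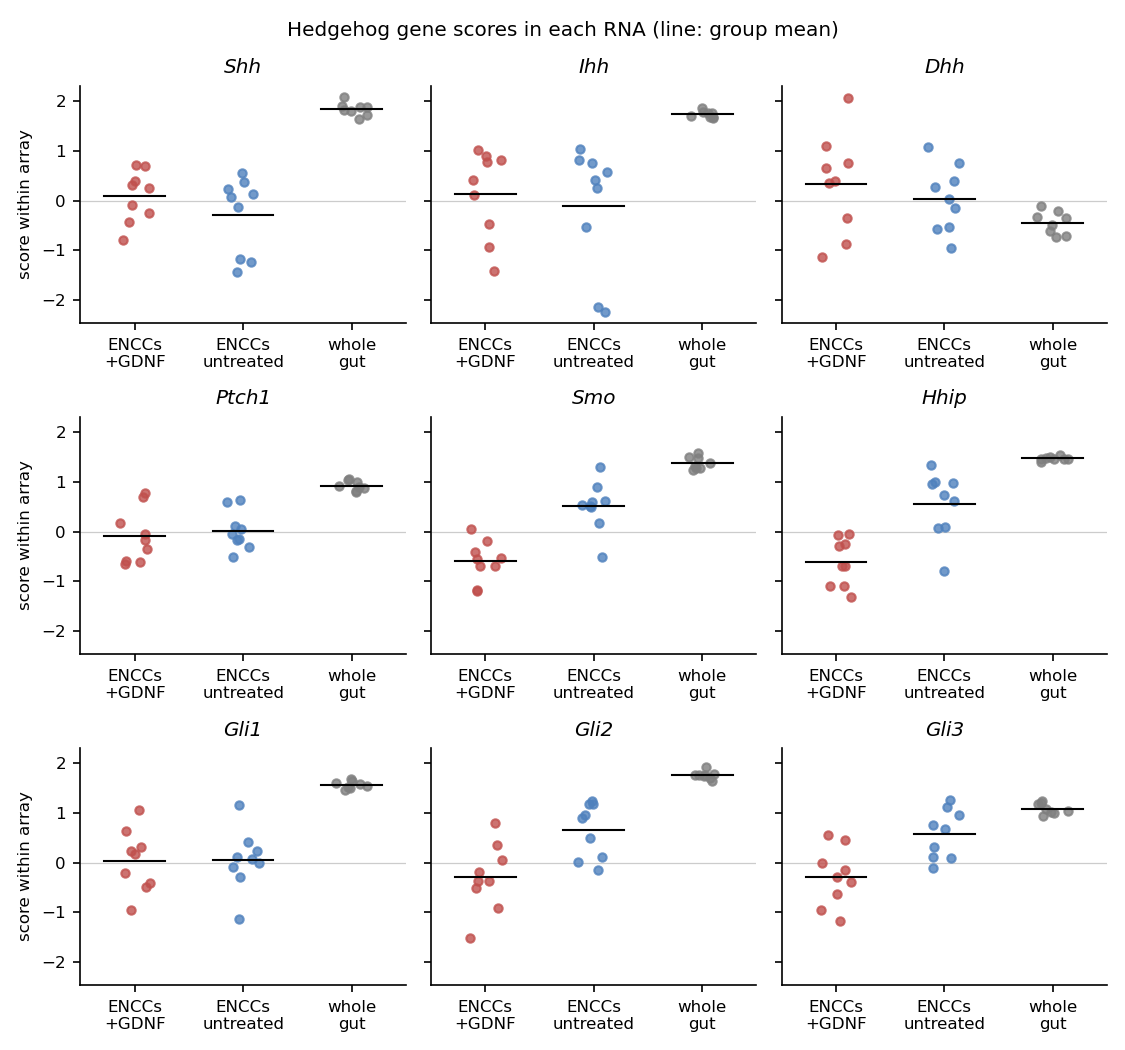
Gene scores of the 9 Hedgehog genes by RNA in GDNF-treated ENCCs, untreated ENCCs and whole gut, with arrays of 1 RNA averaged over batches (y axis, points are RNAs and the short lines their means). Whole guts form a narrow band that lies above the ENCCs for Shh, Ihh, Gli1 and Gli2, and only just above them for Hhip and Ptch1. For Dhh, Smo and Gli3 the whole guts and ENCCs overlap.

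Among the ligands, Shh scored -0.59, -0.22, 0.19 and 0.38 in GDNF-treated ENCCs of guts 2, 3, 8 and 9 and -1.23, 0.37, 0.57 and -1.59 in untreated ENCCs, against 1.64 to 2.09 in whole gut. No ENCC RNA reached the lowest whole gut. The difference from whole gut was -1.91 for GDNF-treated ENCCs (limma adjusted p = 1.25e-06, with weights 5.25e-04) and -2.31 for untreated ENCCs (8.97e-05, with weights 0.00177), or -2.59 without gut 3. Ihh also lay below every whole gut, at -0.69 to 0.87 in GDNF-treated and -1.64 to 0.88 in untreated ENCCs, against 1.66 to 1.86 in whole gut. Its differences were -1.77 for GDNF-treated ENCCs (limma adjusted p = 1.98e-05, with weights 1.75e-04) and -1.73 for untreated ENCCs (0.0013, with weights 0.00447), or -2.02 without gut 3. The mean score of the 16 epithelial markers was -0.21 to 0.44 in GDNF-treated and -0.63 to 0.45 in untreated ENCCs, against 2.47 to 2.58 in whole gut, and the part of epithelium in the ligand differences was not tested.

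Dhh was the exception. It scored -0.76, 0.37, -0.08 and 0.72 in GDNF-treated ENCCs and 0.04, -0.95, 0.33 and 1.42 in untreated ENCCs, against -0.74 to -0.11 in whole gut, so that the groups overlapped. Its difference was 0.51 for GDNF-treated ENCCs (limma adjusted p = 0.0911) and 0.66 for untreated ENCCs (limma adjusted p = 0.114). It passed with equal spread when gut 2 was left out of the treated RNAs (0.78) or gut 3 out of the untreated ones (1.04). One of its 2 probe sets (1434959_at) was higher in ENCCs, by 1.42 with GDNF (limma adjusted p = 7.29e-04) and by 1.26 without it (0.00849), and the other (1422127_at) was not called, at -0.40 and 0.05. The between-batch correlation was 0.73 for the first and 0.52 for the second.

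The induced genes Ptch1, Gli1 and Hhip were lower in ENCCs of both kinds. For untreated ENCCs, the call of Hhip did not hold in both fits without gut 3. Gli1 scored -0.30, 1.21, -1.06 and -0.05 in GDNF-treated and -0.29, 0.72, 0.18 and -1.47 in untreated ENCCs, against 1.47 to 1.68 in whole gut. The difference was -1.62 for GDNF-treated ENCCs (limma adjusted p = 5.46e-04, with weights 0.00146) and -1.78 for untreated ENCCs (2.37e-04, with weights 0.00195), or -2.10 without gut 3. Ptch1 scored -0.17 to 0.54 in GDNF-treated and -0.39 to 0.12 in untreated ENCCs, against 0.79 to 1.06 in whole gut, without overlap. Its differences were -0.79 (limma adjusted p = 4.13e-04, with weights 0.0374) and -1.11 (5.73e-05, with weights 0.0166), and the second was -1.21 without gut 3. Of its 3 probe sets, the one that did not correlate between batches (1450824_at) did not differ from whole gut by the test, at -0.16 for GDNF-treated and 0.35 for untreated ENCCs.

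Hhip scored -0.16, -1.40, 0.13 and -0.43 in GDNF-treated ENCCs and 1.34, 0.29, -0.03 and 1.05 in untreated ENCCs, against 1.41 to 1.55 in whole gut. The untreated RNA of gut 2 lay just under the whole guts. The difference was -1.94 for GDNF-treated ENCCs (limma adjusted p = 9.45e-06, with weights 4.52e-05) and -0.81 for untreated ENCCs (0.00913, with weights 0.0435). For untreated ENCCs, 3 of the 4 probe sets, those with between-batch correlations of 0.83 to 0.93, were not called, at -0.76, -0.31 and -0.45 (limma adjusted p = 0.068, 0.221 and 0.105). The probe set that was called (1438083_at, -1.73) had a correlation of 0.32. Without gut 3 the gene difference was -0.69, and the adjusted p with weights was 0.0747 (limma), above the threshold of 0.05.

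Gli2 scored -0.56, -1.71, -0.20 and 1.08 in GDNF-treated ENCCs and 1.18, -0.42, 0.92 and 1.21 in untreated ENCCs, against 1.64 to 1.93 in whole gut, again without overlap. The difference was -2.11 for GDNF-treated ENCCs (limma adjusted p = 2.72e-04, with weights 5.45e-04) and -1.04 for untreated ENCCs (0.00474, with weights 0.0343), or -0.65 without gut 3, where it passed with equal spread and not with weights (limma adjusted p = 0.0765). Smo and Gli3 were lower than whole gut with GDNF and not in both fits without it, which is no test of the GDNF difference. Smo differed by -1.68 in GDNF-treated ENCCs (limma adjusted p = 3.53e-04, with weights 0.00334) and by -0.73 in untreated ENCCs (0.0393, with weights 0.221), whose RNAs of guts 2 and 8 lay within the whole gut range, at 1.30 and 1.35. Gli3 differed by -1.38 in GDNF-treated ENCCs (limma adjusted p = 9.58e-04, with weights 0.00639) and by -0.73 in untreated ENCCs (0.0413, with weights 0.192). For untreated ENCCs, Smo lost its call without gut 3 (-0.42) or gut 9 (-0.58), and Gli3 without gut 8 (-0.42) or gut 9 (-0.60). Without gut 3, Gli3 differed by -0.87.

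By probe set, 16 of 21 were lower and 1 was higher in GDNF-treated ENCCs than in whole gut, where 23.5% of all probe sets were lower and 23.7% were higher. In untreated ENCCs 10 were lower and 1 was higher, where 19.2% were lower and 18.6% were higher. The 1 higher probe set was that of Dhh in both comparisons.

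Around the core, the counts below are of genes that passed both fits, as did 15.9% of all genes on the lower side and 16.0% on the higher side in GDNF-treated ENCCs, and 11.7% and 9.01% in untreated ENCCs. The release and co-receptor list stood lower in GDNF-treated ENCCs, with 1 gene higher and 6 lower in both fits, and Gpc3 (-1.80) and Gas1 (-1.54) led the falls. In untreated ENCCs 0 of the 11 passed both fits. Of the 18 target genes, 2 were higher and 9 were lower in GDNF-treated ENCCs in both fits, and 2 were higher and 5 were lower in untreated ENCCs. Foxf1, a mesenchymal factor that gut Hedgehog signals induce, differed by -2.97 in GDNF-treated and -2.14 in untreated ENCCs. Bmp4, another such target, differed by -2.46 in GDNF-treated and -1.06 in untreated ENCCs, while Ccnd1 was higher than whole gut, by 0.97 and 2.04. Of the intracellular list 6 were higher and 1, Sufu (-1.11), was lower in GDNF-treated ENCCs, and 2 were higher and 0 lower in untreated ENCCs. Of the cilium list 2 were higher in GDNF-treated and 1 in untreated ENCCs, with Wdr35, a carrier of ciliary cargo, in both. The cilium counts lie near the shares of all genes, and so do the higher counts of the target list. So does the higher count of the intracellular list in untreated ENCCs. Without gut 3 the counts in untreated ENCCs were 1 higher and 1 lower for release and co-receptors. They were 3 higher and 0 lower for intracellular control and 0 for cilium transport. For the targets they were 2 higher and 5 lower, and Bmp4 no longer passed. Among all genes, 11.3% were higher and 12.5% were lower in both fits without gut 3. The release and co-receptor counts and the higher count of the targets lie near these shares.

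The mean score of the 14 mesenchyme markers was -0.93 to 0.09 in GDNF-treated ENCCs and 0.25 to 0.75 in untreated ENCCs, against 1.13 to 1.32 in whole gut, and 11 of them were lower in GDNF-treated and 6 in untreated ENCCs in both fits. The 8 smooth muscle markers had mean scores of -0.45 to 0.13 in GDNF-treated and -0.25 to 0.44 in untreated ENCCs, against 1.43 to 1.57 in whole gut. Ribosomal protein genes had mean scores of -0.63 to 0.19 in GDNF-treated and -0.46 to 0.89 in untreated ENCCs, against 0.67 to 0.79 in whole gut, and 3 of 6 were lower in GDNF-treated and 0 of 6 in untreated ENCCs in both fits. The part of these 3 lists in the differences of the Hedgehog genes was not tested. Sorting, culture and the transgenes also separate ENCCs from whole gut and cannot be told apart from cell type.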

How the data were processed

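Total RNA of ENCCs and whole guts was biotin-labelled and read on Affymetrix arrays, per the labels' protocols. The submitters' processing notes name RMA, with no version. The deposited values are a score: on each array the sorted values equal the normal quantiles of their ranks, from -4.084 to 4.084, and probe sets appear to have been centred and scaled within a batch on the 7 ENCC RNAs read in both. This was read from the values, not from the labels, so no log2 scale, fold or filter on dim probe sets was available, and the design, which allowed for log values, was kept with limma. The number of arrays limits the precision.

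Of 45101 probe sets, 34958 had 1 symbol, 932 several and 9211 none, and without control probe sets 34945 were used for 18193 genes. For 34741 of them the gene identifier was found in the GRCm38.p6 gene table, and 0 symbols changed. Probe sets of a gene were averaged. For GDNF, the untreated well was subtracted from the treated well of the same gut within a batch, and guts in both batches entered as the mean. Gut numbers in the titles and the treatment protocol give the pairing. The deviations of paired wells correlated by 0.063 to 0.296 over genes, and in 4 of 9 guts (1, 3, 8 and 9) the treated well correlated better with the untreated well of another gut, by 0.127 to 0.286. Limma 3.58.1 with statmod 1.5.0 (R 4.3.3) was fitted with lmFit and eBayes, with Benjamini-Hochberg adjustment over all genes or probe sets and a threshold of 0.05. For ENCCs against whole gut, a second fit used arrayWeights with 1 weight per group. The fits were tested on simulated data.

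All 9 Hedgehog genes were named, with up to 8 called genes per list, and 3 genes most correlated with Ptch1, Gli1 and Hhip. Members and lists were chosen with earlier results of these data known. Some genes of the lists are not reported here, and counts are given over the genes measured. The alternatives were other probe set summaries, single batches, leaving out guts or a doubted array, no pairing, a hybridisation control covariate, robust moderation, all ENCC RNAs against whole gut, and group weights.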

Additional observations from a re-analysis of the deposited data

Results flagged for a closer look

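The 9 genes were examined in 36 groups of samples or guts for a value far from the rest of its group, by Dixon's test, which chance passes in about 1 of 20 groups, and 2 stood out. The within-gut difference of Gli1 with GDNF was 1.32 in gut 9, with the other guts between -0.48 and 0.40. The single Gli1 probe set gave 1.22 in batch 1 and 1.42 in batch 2 for gut 9. For gut 8 it gave 1.04 in batch 1 and -1.23 in batch 2, and its correlation between batches was -0.02. The score of Gli2 was 1.93 in whole gut 4, with the other whole guts between 1.64 and 1.78.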

How the results depend on the processing

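Smo, Gli2, Gli3 and Hhip kept their call with GDNF in 17 of 18 other settings each. In batch 2 alone the differences stayed below 0 and the calls were lost (0 called of 9, against 4, and 0 of all genes, against 5725). Without a replicate block, that is with the paired wells taken as unpaired, the differences were -1.11 for Smo, -0.96 for Gli2, -0.86 for Gli3 and -1.17 for Hhip, 4 Hedgehog genes were called, and all genes called numbered 4859. Leaving out each gut in turn gave -1.25 to -0.99 for Smo, -1.01 to -0.81 for Gli2, -0.96 to -0.77 for Gli3 and -1.32 to -1.08 for Hhip. Shh was called with its better correlated probe set, at 1.19. For ENCCs against whole gut, a weight for each group called 5805 genes with GDNF and 3761 without it, against 9281 and 7752 with equal spread. With weights and without gut 3, chosen after the data had been seen, 4 Hedgehog genes, against 8, and 4326 genes were called without GDNF. The better correlated probe set of Dhh was called in both, at 1.42 with GDNF and 1.26 without it. Without GDNF, the better correlated probe sets of Smo and Gli3 (-0.09 and -0.77) and the medians of their probe sets (-0.39 and -0.68) were not called. No direction reversed among called values. The cause of these changes was not tested. The scores give no signal over background, so dim probe sets could not be told from bright ones.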
